A study of Oryctolagus cuniculus with 6 samples.

Results

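The genes described here build and run the mitotic spindle: cyclins and kinases of mitotic entry, the spindle assembly checkpoint, kinetochore and centromere proteins, mitotic kinesins, spindle microtubule proteins, cytokinesis proteins, chromosome structure proteins and 2 transcription factors. The genes were chosen with earlier results of these data known. They were taken by symbol, as the rows of the deposited gene table that carry 1 of 57 listed names. Of these, 51 had a row among the 29587 genes of the table, and all 51 passed the filter on low counts and were among the 13724 genes tested. CCNA2, BIRC5, PTTG1, SPC24, SPC25 and KIF22 had no row under these symbols and were not analysed here. The rabbits were New Zealand animals, 3 months old, and the tissue was the mucosa of the trachea. In the high cuff pressure group, of 3 libraries, a 3.0 mm tracheal tube was placed at 13 cm and its cuff was held at 35 cmH2O for 2 h as a model of mucosal injury. The control group, also of 3 libraries, has no description of its handling in the labels, so whether those rabbits were intubated is not known, and neither is the time from cuff to tissue collection. Libraries are called high 1 to high 3 and control 1 to control 3 by the numbers of their library names in the labels. By title control 3 is S4 and no library is S3, so the labels hold 2 numberings of the controls. The labels call the cells epithelial while the protocol names mucosa.

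Mitosis starts when CDK1 bound to B-type cyclins becomes active, and it ends when the anaphase-promoting complex, an E3 ubiquitin ligase, marks those cyclins and securin for degradation. Between these points, kinetochores attach chromosomes to spindle microtubules, checkpoint kinases hold back anaphase until all are attached, kinesins move and sort microtubules, and the central spindle and contractile ring divide the cell. Most of these transcripts are made late in the cell cycle under FOXM1 and MYB-MuvB, so they are known as a proliferation signature. In the airway, basal cells are the main dividing stem cells, and epithelial injury is known to bring them into the cell cycle. In bulk tissue RNA, more dividing cells and more RNA per dividing cell cannot be told apart.

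The 6 libraries held 10501734 to 14415754 counts on genes. Transcripts of epithelial cells (KRT5, a basal cell keratin, and the multiciliated cell markers) were counted in all 6, as were smooth muscle, fibroblast and endothelial markers. The libraries thus do not hold epithelial cells alone, and which layers of the wall they hold was not tested. Levels are given as CPM, counts scaled to a common library size after TMM normalisation. Values in a series follow the order high 1, high 2, high 3 against control 1, control 2, control 3. Nothing in the labels ties each library to 1 animal, so the p-values reflect the spread among the libraries sequenced, which may be technical. Differences are log2 fold changes of high cuff pressure over control with their standard errors (SE), tested with edgeR's quasi-likelihood test. P-values were adjusted over all 13724 genes by the Benjamini-Hochberg method, and genes with an adjusted p under 0.05 are called higher or lower.

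Transcripts of the mitotic apparatus rose with high cuff pressure in every role, from the B-type cyclins to the central spindle. Of the 51 genes, 42 were higher (82.4%) and 0 were lower, beside 503 genes higher (3.67%) and 222 lower (1.62%) among all genes tested. As the 51 were chosen with earlier results of these data known, these shares describe the list and are no separate evidence. By unadjusted p under 0.05, 46 of the 51 differed, all upward, beside 4015 (29.3%) of all genes tested. In 45 of the 51 (88.2%), each high cuff pressure library lay above each control, an arrangement that 18.6% of all genes tested had. A gene passed the filter on low counts with enough counts in any 3 libraries. Genes rare in the controls could thus pass through the high cuff pressure libraries alone. CENPA (3, 10 and 2 control counts), NDC80 (4, 10 and 3) and ASPM (6, 11 and 8) did so and are among the 42 and the 45. The median log2 fold change of the 51 genes was 3.23, from -0.41 to 5.14, beside a median of -0.01 over all genes tested. Summed over the 51 genes, the level was 788, 1419.8 and 2799 CPM in the high cuff pressure libraries and 175, 200.2 and 192 CPM in the controls. The means were 1669 ± 1028 against 189 ± 12.8 CPM (SD, n = 3), a ratio of 8.82, or 5.83 without high 3. The control libraries lay close together, and the high cuff pressure libraries all lay above them but far from each other. Other properties of the libraries split the groups too. The mitochondrial transcript COX1 took 10.6, 7.95 and 9.76% of the counts in high 1 to high 3 and 3.21, 1.71 and 1.68% in control 1 to control 3, and the TMM factors were 0.810 to 0.917 against 1.03 to 1.21. Their part in the change of the mitosis genes was not tested.

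The number of genes past the threshold depended on single libraries. With edgeR it was 45 of 51 without high 1, 34 without high 3, 7 without control 1, 1 without high 2 and 0 without control 2 or without control 3. The number of all genes called higher moved too. It was 1362 of 14064 tested without high 1, 244 of 14041 without high 3, 68 of 14020 without control 1 and 3 of 14051 without high 2. Without control 2 or control 3 no gene of the whole table passed, the smallest adjusted p being 0.0691 and 0.0701 (edgeR). In these 2 fits 45 and 44 of the 51 had an unadjusted p under 0.05, beside 19.2% and 17.9% of all genes. DESeq2 called 46 of the 51 higher with all libraries, beside 1461 genes higher and 1170 lower of 13724 tested (19.2% in either direction). It called 42 to 45 higher when any of the 6 was left out, beside 6.63% to 28.6% of all genes called in either direction. The fold changes themselves moved less: their median was 2.60 without high 3 and 3.05 to 3.56 without each of the others, and 50 of 51 were positive in each fit except without high 3, where 48 were. With library sizes taken as total counts, the median of all genes shifted to -0.40, 389 genes were higher and 1241 lower, and the 51 genes had a median of 2.83 with 40 called higher.

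**Figure D1:**
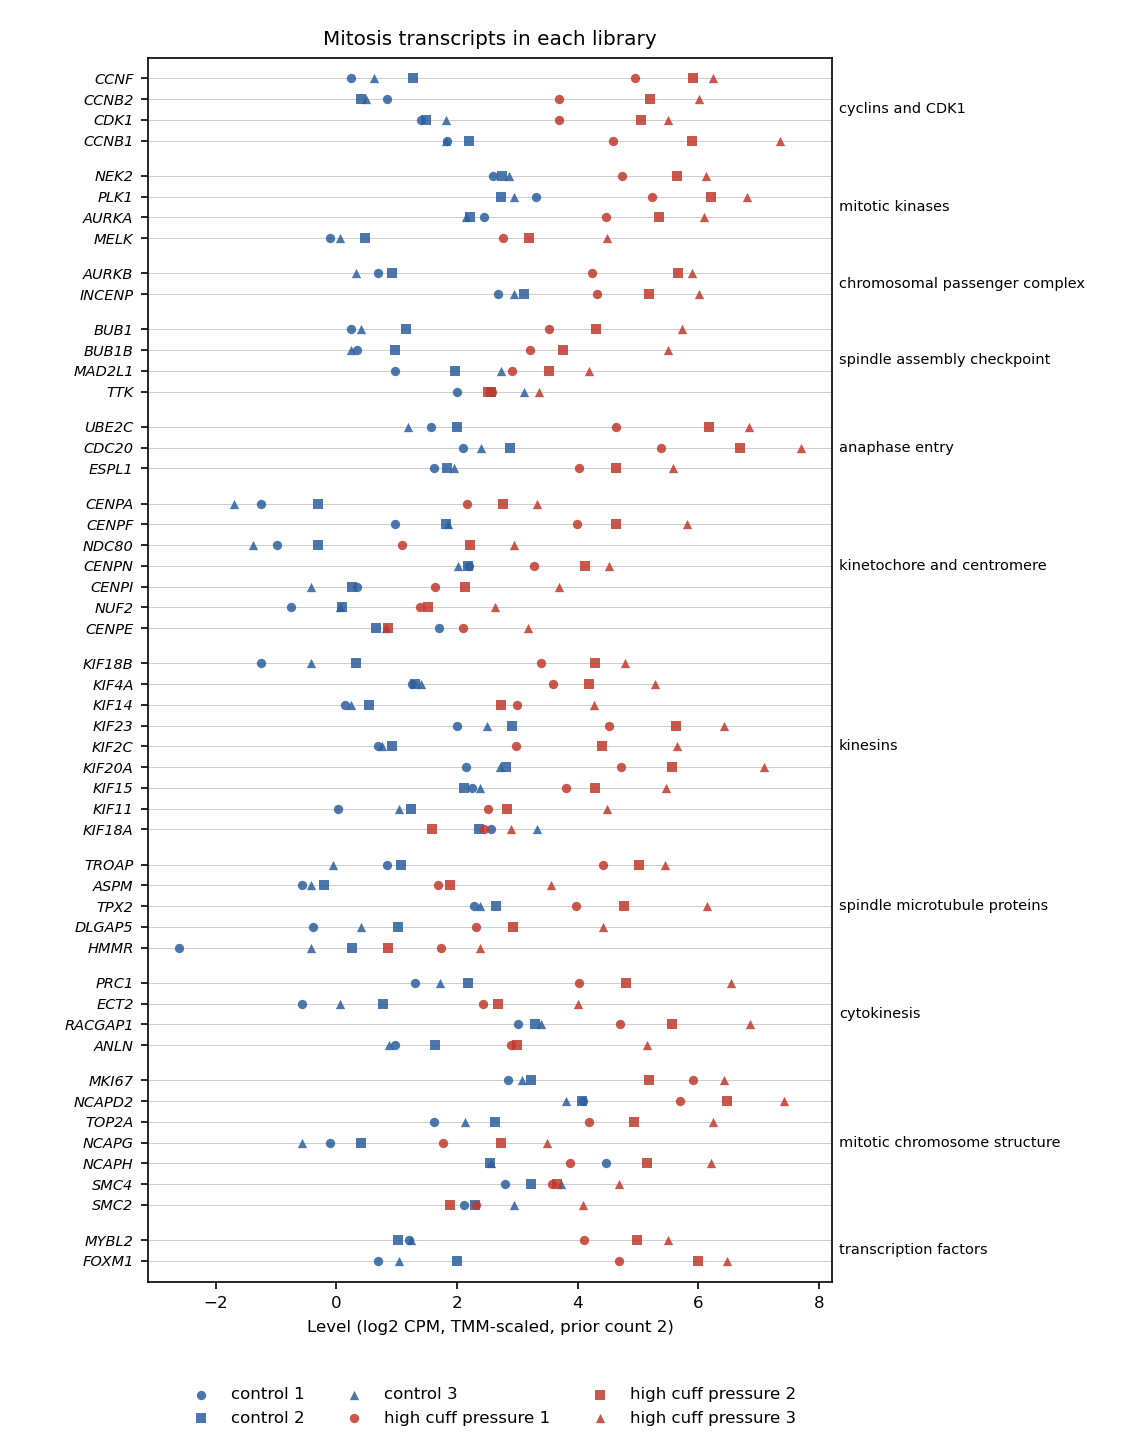
Levels of the 51 mitosis genes in each library, grouped by role: each point is 1 library, on a log2 CPM scale, coloured by group. The high cuff pressure points lie to the right of all control points in 45 genes, and the groups overlap for TTK, CENPE, KIF18A, NCAPH, SMC4 and SMC2.

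The cyclins and CDK1 rose in all 4 measured genes, with a median log2 fold change of 4.64. CCNF encodes cyclin F, the substrate receptor of an SCF ubiquitin ligase, and lies on scaffold GL018968 from 175824 to 195547 (build not given in the sources used here). Its level was 30.9, 60.4 and 75.5 CPM against 1.03, 2.25 and 1.38 CPM. No high cuff pressure library came near the controls, and the change of 5.14 ± 0.48 (SE; adjusted p = 0.0127, edgeR) was the largest of the 51 genes and had their smallest p. CCNB1, cyclin B1, which activates CDK1, lies on chromosome 11 from 85363420 to 85371305 and stood at 24.0, 59.2 and 163 CPM against 3.42, 4.44 and 3.35 CPM. Its log2 fold change of 4.45 ± 0.69 (adjusted p = 0.0223, edgeR) fell to 3.47 without high 3. For CCNB2, cyclin B2, the values were 12.7, 36.6 and 64.6 CPM against 1.62, 1.16 and 1.24 CPM, a change of 4.82 ± 0.62 that was 4.20 without high 3. High 3 thus set part of the size for both B-type cyclins, but high 1 alone stayed several-fold above every control. CDK1, the mitotic kinase itself, was measured at 12.7, 33.1 and 44.8 CPM against 2.48, 2.64 and 3.35 CPM, with a change of 3.41 ± 0.49 (adjusted p = 0.0183, edgeR).

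Both transcription factors of the late cell cycle programme rose. FOXM1, a forkhead factor that drives G2 and M phase genes, lies on chromosome 8 from 29084906 to 29098945 and was counted at 25.5, 63.7 and 88.4 CPM against 1.45, 3.86 and 1.90 CPM, a log2 fold change of 4.60 ± 0.58 (adjusted p = 0.0171, edgeR). MYBL2, also called B-MYB, which works with the MuvB complex on the same promoters, was counted at 17.2, 31.7 and 45.2 CPM against 2.14, 1.87 and 2.19 CPM, a change of 3.92 ± 0.42 (adjusted p = 0.0142, edgeR). Neither pair of groups overlapped, and the lowest high cuff pressure library for each gene was high 1.

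All 4 mitotic kinases rose. PLK1, polo-like kinase 1, which acts at centrosomes and kinetochores, went from 9.74, 6.43 and 7.51 CPM in the controls to 37.6, 73.8 and 112 CPM, a change of 3.24 ± 0.43. AURKA, the spindle pole kinase aurora A, went from 5.30, 4.50 and 4.30 to 21.9, 40.4 and 67.8 CPM, a change of 3.21 ± 0.43. NEK2, which separates the centrosomes, changed by 2.91 ± 0.38, from 5.90, 6.56 and 7.07 to 26.5, 50.0 and 70.2 CPM. These 3 kinases had an adjusted p of 0.0171 each (edgeR), and their levels in the controls were already several CPM. MELK, a maternal embryonic leucine zipper kinase, was rarer, at 6.60, 8.94 and 22.3 CPM against 0.769, 1.22 and 0.875 CPM. It changed by 3.70 ± 0.56 (adjusted p = 0.0211, edgeR), or 3.00 without high 3.

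In the chromosomal passenger complex, which corrects faulty kinetochore attachments and later acts at the midzone, both measured genes rose by different amounts. AURKB, aurora B, its kinase, lies on chromosome 19 from 11053266 to 11057078 and stood at 18.7, 50.5 and 59.1 CPM against 1.45, 1.74 and 1.09 CPM, a change of 4.89 ± 0.51 (adjusted p = 0.0142, edgeR). INCENP, the scaffold that holds aurora B, stood at 19.7, 36.2 and 64.2 CPM against 6.24, 8.49 and 7.51 CPM, a change of 2.43 ± 0.44 (adjusted p = 0.0327, edgeR). The control levels of INCENP were higher than those of AURKB, while the high cuff pressure levels of the pair were alike. CPM are not corrected for length, and the model of INCENP is longer than that of AURKB (2715 against 1807 bases).

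In the spindle assembly checkpoint 2 of 4 genes rose. BUB1, a checkpoint kinase of the kinetochore, rose from 1.03, 2.06 and 1.17 to 11.3, 19.7 and 52.8 CPM, a change of 4.28 ± 0.65 (adjusted p = 0.0214, edgeR), and BUB1B, the BubR1 subunit of the mitotic checkpoint complex, rose from 1.11, 1.80 and 1.02 to 9.07, 13.3 and 45.2 CPM, a change of 4.09 ± 0.68 (adjusted p = 0.0273, edgeR). Without high 3 these changes were 3.43 and 3.08. MAD2L1, which encodes MAD2, the inhibitor of CDC20, did not pass (adjusted p = 0.0985, edgeR) at 7.39, 11.4 and 18.1 CPM against 1.79, 3.73 and 6.49 CPM, a log2 fold change of 1.62 ± 0.53. Its 3 high cuff pressure libraries still lay above its controls, which were spread from 1.79 to 6.49 CPM. TTK, the MPS1 kinase at the head of the checkpoint, did not pass and its groups overlapped, at 5.82, 5.53 and 10.1 CPM against 3.85, 5.73 and 8.45 CPM. Its log2 fold change of 0.25 ± 0.41 (adjusted p = 0.715, edgeR) changed sign without high 3, at -0.08, and with total counts, at -0.15.

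Anaphase entry was among the groups with the highest medians, 4.42, with all 3 measured genes higher. UBE2C, the ubiquitin-conjugating enzyme of the anaphase-promoting complex, stood at 24.6, 72.0 and 115 CPM against 2.82, 3.86 and 2.11 CPM, a change of 4.58 ± 0.59 (adjusted p = 0.0171, edgeR). CDC20, the activator that the checkpoint holds back, stood at 41.5, 103 and 208 CPM against 4.10, 7.21 and 5.10 CPM, a change of 4.42 ± 0.60 (adjusted p = 0.0171, edgeR), or 3.71 without high 3. The row named CDC20 spans 27234 bases with a model of 3888 bases, which is long for this gene, so its level is uncertain. ESPL1, separase, the protease that cuts cohesin, stood at 16.1, 24.6 and 47.5 CPM against 2.91, 3.41 and 3.72 CPM, a change of 3.13 ± 0.44 (adjusted p = 0.0180, edgeR). For all 3, high 1, the lowest library of its group, lay well above every control.

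Of the 7 kinetochore and centromere genes with a row, 6 rose, with a median log2 fold change of 2.88 over the 7. CENPA, the histone H3 variant that marks centromeres, was rare: 4.34, 6.59 and 9.92 CPM against 0.256, 0.643 and 0.146 CPM. Its counts in the controls were 3, 10 and 2, so its change of 4.25 ± 0.62 (adjusted p = 0.0190, edgeR) rests on few control reads, and it was 5.06 without control 2. CENPF, a large kinetochore and nuclear matrix protein, was counted at 15.7, 24.6 and 56.3 CPM against 1.79, 3.35 and 3.43 CPM, a change of 3.49 ± 0.54 (adjusted p = 0.0223, edgeR), or 2.81 without high 3. NDC80 and NUF2 encode the paired arms of the complex that grips microtubules. NDC80 changed by 3.49 ± 0.66 from 0.342, 0.643 and 0.219 to 1.97, 4.47 and 7.50 CPM, and NUF2 by 2.33 ± 0.54 from 0.427, 0.901 and 0.875 to 2.46, 2.71 and 6.06 CPM, the latter just inside the threshold (adjusted p = 0.0498, edgeR). CENPN and CENPI belong to the inner kinetochore network on centromeric chromatin. CENPN changed by 1.97 ± 0.37, from 4.44, 4.38 and 3.86 to 9.56, 17.2 and 22.8 CPM, the smallest change among the 42 genes called. CENPI changed by 2.88 ± 0.65 (adjusted p = 0.0479, edgeR), from 1.11, 1.03 and 0.583 to 2.96, 4.24 and 12.8 CPM, and by 1.98 without high 3. CENPE, a kinetochore motor that gathers chromosomes at the equator, did not pass (adjusted p = 0.218, edgeR), and its groups overlapped at 4.14, 1.65 and 8.86 CPM against 3.08, 1.42 and 1.60 CPM. The fitted change of 1.28 ± 0.63 dropped to 0.53 when high 3 was left out.

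Among the 9 kinesins with a row, 8 rose, with a median of 3.29 over the 9. The 2 kinesin-8 motors, which restrain microtubule plus ends, differed most: KIF18B stood at 10.3, 19.3 and 27.5 CPM against 0.256, 1.09 and 0.583 CPM, a change of 4.83 ± 0.60 (adjusted p = 0.0171, edgeR) that was 5.45 without control 2, whereas KIF18A stood at 5.32, 2.82 and 7.27 CPM against 5.73, 5.02 and 9.91 CPM, a log2 fold change of -0.41 ± 0.45 (adjusted p = 0.566, edgeR). KIF18A was the 1 gene of the 51 with a negative fold change, and its groups overlapped. KIF20A and KIF23 are kinesins of the central spindle. KIF20A rose from 4.27, 6.89 and 6.41 to 26.3, 47.1 and 136 CPM, by 3.57 ± 0.62 (2.64 without high 3), and KIF23 rose from 3.85, 7.34 and 5.47 to 22.7, 49.5 and 85.6 CPM, by 3.24 ± 0.51. KIF2C, a kinesin that takes microtubules apart, rose from 1.45, 1.74 and 1.53 to 7.69, 21.1 and 50.1 CPM, by 4.05 ± 0.68 (3.18 without high 3). KIF4A, a motor on chromosome arms, rose from 2.22, 2.32 and 2.48 to 11.9, 18.1 and 38.7 CPM, by 3.29 ± 0.48 (2.68 without high 3). KIF14, a midbody motor, rose from 0.940, 1.29 and 1.02 to 7.79, 6.47 and 19.1 CPM, by 3.35 ± 0.52 (2.71 without high 3). KIF14 was thus slightly higher in high 1 than in high 2, unlike the other kinesins that rose. KIF11 and KIF15 push spindle poles apart. KIF11 changed by 2.81 ± 0.65, from 0.855, 2.19 and 1.90 to 5.52, 6.94 and 22.4 CPM, and lay near the threshold (adjusted p = 0.0491, edgeR). KIF15 changed by 2.48 ± 0.46, from 4.61, 4.18 and 5.03 to 13.9, 19.3 and 44.1 CPM. Without high 3 these changes were 1.90 and 1.85.

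Spindle microtubule proteins rose in 4 of 5 genes. TROAP, a microtubule-associated protein of the spindle, stood at 21.2, 32.4 and 43.5 CPM against 1.62, 1.93 and 0.802 CPM, a change of 4.47 ± 0.45 (adjusted p = 0.0142, edgeR). TPX2, which activates and targets aurora A, stood at 15.5, 27.1 and 70.4 CPM against 4.70, 6.11 and 5.03 CPM, a change of 2.83 ± 0.55 (adjusted p = 0.0347, edgeR). ASPM, at spindle poles, changed by 3.31 ± 0.63 from 0.513, 0.708 and 0.583 to 3.06, 3.53 and 11.6 CPM, and DLGAP5, a spindle stabiliser, by 3.19 ± 0.68 from 0.598, 1.87 and 1.17 to 4.83, 7.41 and 21.4 CPM. Without high 3 the changes of TPX2, ASPM and DLGAP5 were 2.01, 2.43 and 2.31, and that of TROAP was 4.19. HMMR, a spindle and hyaluronan-binding protein, did not pass (adjusted p = 0.107, edgeR) at 3.15, 1.65 and 5.08 CPM against 0, 1.03 and 0.583 CPM. Control 1 had no count of HMMR, where 3 counts would be 0.256 CPM, and the controls held 24 counts of it in all. Its fitted log2 fold change of 2.56 ± 0.88 was 2.04 without control 1 and 3.40 without control 2.

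In cytokinesis 3 of 4 genes rose. PRC1, which bundles the central spindle, stood at 16.1, 27.9 and 92.5 CPM against 2.31, 4.38 and 3.13 CPM, a change of 3.79 ± 0.68 (adjusted p = 0.0333, edgeR). RACGAP1, the partner of KIF23 in centralspindlin, stood at 25.8, 47.3 and 115 CPM against 7.86, 9.65 and 10.3 CPM, a change of 2.76 ± 0.53 (adjusted p = 0.0341, edgeR). ECT2, the exchange factor that activates RhoA at the cleavage site, changed by 3.20 ± 0.61 from 0.513, 1.54 and 0.875 to 5.22, 6.24 and 15.9 CPM. ANLN, anillin, the scaffold of the contractile ring, missed the threshold by little (adjusted p = 0.0507, edgeR) with 7.29, 7.77 and 35.2 CPM against 1.79, 2.96 and 1.68 CPM, a log2 fold change of 2.96 ± 0.69 and groups that did not overlap. All 4 leaned on high 3, without which the changes were 2.74 for PRC1, 1.98 for RACGAP1, 2.52 for ECT2 and 1.80 for ANLN.

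Chromosome structure was the role with the most genes short of the threshold, 3 of 7. MKI67, the Ki-67 surfactant of mitotic chromosomes and the usual histological mark of cycling cells, stood at 59.8, 36.1 and 85.6 CPM against 7.01, 9.20 and 8.31 CPM, or 60.5 ± 24.7 against 8.17 ± 1.10 CPM (mean ± SD, n = 3). Its change was 2.89 ± 0.35 (adjusted p = 0.0171, edgeR). TOP2A, topoisomerase II alpha, which untangles sister chromatids, changed by 3.23 ± 0.57 from 2.91, 6.05 and 4.23 to 18.1, 30.4 and 75.4 CPM (2.46 without high 3). Of the condensin I subunits, NCAPD2 rose by 2.72 ± 0.43 from 16.9, 16.7 and 13.8 to 51.5, 88.7 and 172 CPM, and NCAPG by 3.07 ± 0.57 from 0.769, 1.16 and 0.510 to 3.25, 6.47 and 11.1 CPM. NCAPH, the kleisin that joins them, did not pass (adjusted p = 0.132, edgeR) at 14.5, 35.3 and 73.9 CPM against 22.0, 5.66 and 5.76 CPM. Control 1, with 257 counts of NCAPH against 88 and 79 in the other controls, stood above high 1. The log2 fold change of NCAPH, 1.90 ± 0.72, was 2.86 without control 1 (adjusted p = 0.0888, edgeR) and 1.17 without high 3, and it passed when high 1 was left out (2.31, adjusted p = 0.0496, edgeR). SMC2 and SMC4, the ATPase pair that condensin I shares with condensin II, did not pass (adjusted p = 0.517 and 0.241, edgeR) and their groups overlapped. SMC4 stood at 11.7, 12.5 and 25.5 CPM against 6.75, 9.20 and 13.1 CPM, a log2 fold change of 0.78 ± 0.41, and SMC2 at 4.83, 3.53 and 16.9 CPM against 4.19, 4.76 and 7.58 CPM, a log2 fold change of 0.62 ± 0.60 that was -0.39 without high 3.

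The 9 genes short of the edgeR threshold were ANLN, MAD2L1, HMMR, NCAPH, CENPE, SMC4, SMC2, TTK and KIF18A. They fall into 3 whose groups did not overlap (ANLN, MAD2L1 and HMMR) and 6 whose groups did. DESeq2 called ANLN, MAD2L1, HMMR and NCAPH higher (adjusted p = 0.000176, 0.0237, 0.0262 and 0.0336). Without high 1, edgeR called ANLN (adjusted p = 0.0211), MAD2L1 (adjusted p = 0.0487) and NCAPH. By per-length level, the authors' FPKM in the controls, the 9 genes were spread over the 51, from rank 1 for MAD2L1 to ranks 39, 47 and 50 for ANLN, CENPE and HMMR. In the controls MAD2L1, at 5.94 ± 3.74 FPKM (SD, n = 3), had the highest mean of the 51 genes. KIF18A stood at 2.27 ± 0.972, SMC4 at 2.19 ± 0.855 and TTK at 2.05 ± 0.906 FPKM there. With high cuff pressure the same 3 genes stood at 1.2997 ± 0.624, 2.84 ± 1.47 and 1.84 ± 0.749 FPKM, and the libraries of the groups overlapped for each. These FPKM are scaled to total counts without TMM factors, and fitted as log2(FPKM + 1) the median change of all genes was -0.35. The order of the genes by FPKM changed between groups: UBE2C, CCNB1, CCNB2 and CDC20 had the highest means with high cuff pressure, at 105 ± 70.9, 28.0 ± 25.9, 27.8 ± 20.1 and 26.7 ± 20.3 FPKM. In the controls those 4 genes stood at 5.76 ± 1.95, 1.66 ± 0.370, 1.27 ± 0.115 and 1.64 ± 0.582 FPKM. UBE2C was far above the next gene, while CCNB1, CCNB2 and CDC20 differed by less than their SDs. The lowest mean with high cuff pressure was that of CENPE, 0.534 ± 0.420 FPKM.

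All 51 genes had their highest high cuff pressure level in high 3. Among all genes tested 32.4% did, and among the 461 other genes called higher 35.8% did. The peak in high 3 was not particular to these genes. It was also seen in 49 of 52 other mitosis genes, 16 of 17 S phase genes and 11 of 11 genes of the G1 list described below. Basal cell markers had it in 5 of 6 and smooth muscle markers in 5 of 5, but neutrophil markers in 0 of 9 and multiciliated cell markers in 0 of 8. For the 51 mitosis genes the count was 51 of 51 also with total counts, with RLE factors, with the deposited FPKM and with the trend over gene length removed. For 44 genes high 1 was the lowest library, and for 7 it was high 2. The full order high 3, high 2, high 1 therefore held in 44 genes (86.3%), beside 18% of all genes tested, and in 41 with total counts. The libraries of a group have no order in time or dose, so this order ranks libraries.

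The step from high 2 to high 3 differed among the genes. The ratio of high 3 to high 2 had a median of 2.14, from 1.17 for AURKB to 5.38 for CENPE. It was under 1.5 for 9 genes, 1.5 to 2 for 13, 2 to 3 for 20, and 3 or more for 9. At the low end were AURKB, CCNF (1.25), CENPN (1.33), TROAP (1.34), CDK1 (1.35) and FOXM1 (1.39). At the high end were CENPE, SMC2 (4.79), ANLN (4.54), BUB1B (3.40) and PRC1 (3.32). By role, the median ratio was 1.41 for the 2 transcription factors and 2.93 for the 4 cytokinesis genes. For AURKB and CCNF, high 2 and high 3 were thus nearly level and high 1 stood apart, whereas for ANLN high 1 and high 2 were level, at 7.29 and 7.77 CPM, and high 3 stood apart.

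The ratio of high 2 to high 1 had a median of 1.72, from 0.398 for CENPE to 2.92 for UBE2C, and the ratio of high 3 to high 1 a median of 3.37, from 1.37 for KIF18A to 6.80 for CCNB1. The 7 genes that were lower in high 2 than in high 1 were MKI67, KIF14, KIF18A, SMC2, CENPE, HMMR and TTK. Their models were long, with a median of 4588 bases against 3084 for the other 44. Across the 51 genes, the Spearman correlation of model length with the ratio of high 2 to high 1 was -0.53, with the ratio of high 3 to high 2 0.42, and with the log2 fold change -0.29. These are descriptions over 51 genes that share the same libraries. High 2 also stood apart in length over the whole table: the correlation of model length with a gene's deviation from its mean was -0.25 in high 2 and 0.26 in control 2, and between -0.05 and 0.10 in the other 4 libraries. With the length trend removed, 43 of the 51 genes were called higher and the number lower in high 2 than in high 1 was 5. Its part in the order of single genes was not tested beyond this.

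**Figure D2:**
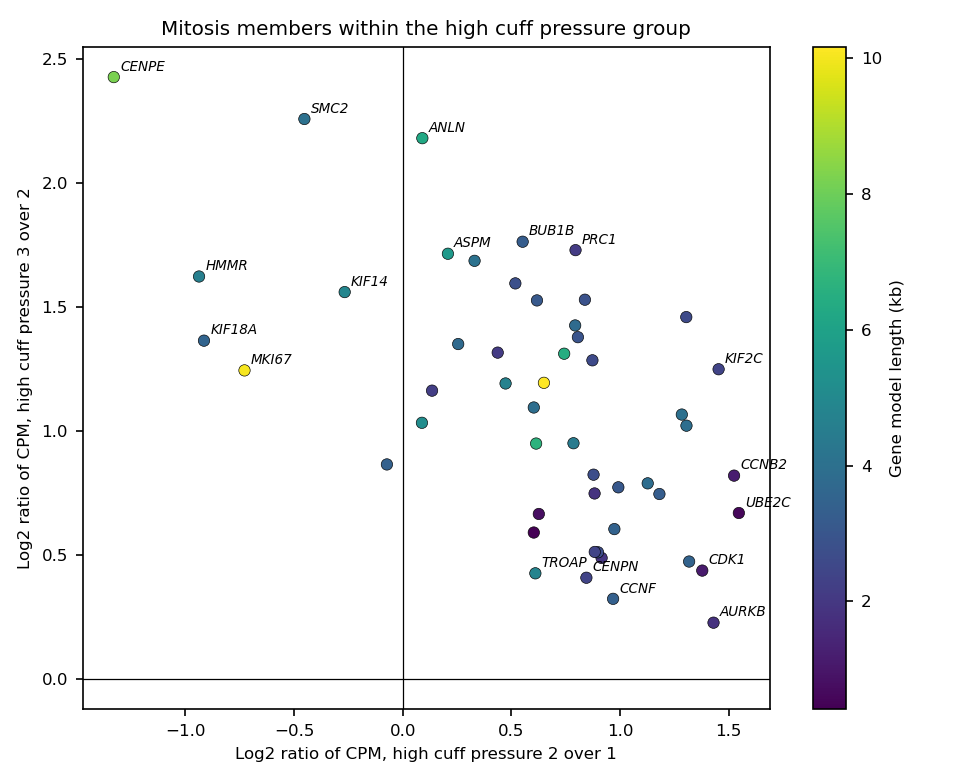
Ratios between high cuff pressure libraries for the 51 genes: the ratio of high 2 to high 1 and of high 3 to high 2, as log2 values, with 1 point a gene coloured by model length. Every gene lies above 0 for high 3 to high 2, and 7 lie below 0 for high 2 to high 1.

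In the controls the same genes were less uniform: 30 were highest in control 2, 13 in control 3 and 8 in control 1. Of all 13724 genes tested, 4595 were highest in control 2. The lowest control was control 1 for 31 genes (60.8%), beside 35.5% of all genes tested. With total counts it was control 1 for 38 genes (74.5%), beside 55.5%. The differences were small beside those in the high cuff pressure group, with summed levels of 175, 200.2 and 192 CPM. The fold changes with and without high 3 had a Spearman correlation of 0.97 over the 51 genes, in fits that share the other 5 libraries.

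Further genes of mitosis, from a list also chosen with earlier results of these data known, rose in 24 of 52 tested and fell in 0. Their median log2 fold change was 1.99. CDC25C, the phosphatase that switches CDK1 on, stood at 4.44, 9.18 and 12.5 CPM against 0.256, 0.386 and 0.219 CPM, a change of 4.86 ± 0.56 (adjusted p = 0.0160, edgeR). HJURP, the chaperone that loads CENPA, averaged 15.4 ± 9.05 against 0.524 ± 0.159 CPM (SD, n = 3), a change of 4.84 ± 0.56 (adjusted p = 0.0160, edgeR), and ZWILCH, of the kinetochore's RZZ complex, changed by 3.57 ± 0.44. Of these 52 genes 49 were highest in high 3, and 13 were called without it. When high 2 or any control was left out, 0 to 4 of the 52 to 54 tested were called by edgeR and 36 to 39 had an unadjusted p under 0.05. In those fits 17.9% to 25% of all genes tested had such a p. Genes of S phase rose in 10 of 17 and fell in 0, with a median of 2.08, or in 4 of 17 without high 3 and 0 to 1 without high 2 or any control, where 13 to 14 had an unadjusted p under 0.05. They include CDT1, which licenses replication origins, at 13.1, 29.4 and 28.1 CPM against 1.45, 1.87 and 1.38 CPM (3.90 ± 0.41), RRM2, a ribonucleotide reductase subunit, at 39.1, 81.9 and 151 CPM against 3.93, 7.27 and 3.79 CPM (4.17 ± 0.55), and MCM2, of the replicative helicase, at 30.5, 47.2 and 134 CPM against 6.49, 13.5 and 9.91 CPM (2.82 ± 0.58). PCNA, the sliding clamp, did not pass, at 76.3, 157 and 217 CPM against 50.4, 48.8 and 63.3 CPM (adjusted p = 0.0582, edgeR). A G1 list of cyclins, their kinases and E2F factors, which also holds the phosphatase CDC25A, rose in 3 of 11 (CCNE1, E2F2 and CDC25A). It fell in 0, with a median of 1.46. Without high 3, 0 of the 11 passed by edgeR and 7 had an unadjusted p under 0.05, beside 26.8% of all genes tested.

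Lists of neighbouring cell cycle machinery gave counts in both directions. Their counts at an unadjusted p under 0.05 stand beside 29.3% of all genes tested, and their DESeq2 counts beside 19.2%. Of 13 subunits and partners of the anaphase-promoting complex, 1 rose, UBE2S, the chain-elongating enzyme (2.05 ± 0.32, adjusted p = 0.0229, edgeR), and the list's median was 0.18, or -0.22 with total counts. Of 13 genes of the MuvB and DREAM complexes and NF-Y, which bind the promoters of mitotic genes, 0 passed by edgeR in either direction and 2 had an unadjusted p under 0.05, with DESeq2 calling 0 higher and 1 lower. Of 7 centriole duplication genes 0 passed by edgeR, 2 had an unadjusted p under 0.05 and DESeq2 called 0 higher and 1 lower. In cohesin, the ring that separase opens, 3 of 8 genes fell and 0 rose, with a median of -0.77. STAG2, a core subunit, fell from 61.7, 77.1 and 98.8 to 35.5, 20.9 and 22.7 CPM (-1.59 ± 0.29), SMC3 from 64.3, 56.8 and 81.6 to 27.9, 27.5 and 34.1 CPM (-1.18 ± 0.23) and NIPBL, the loader, from 68.5, 78.6 and 93.1 to 41.1, 16.7 and 25.5 CPM (-1.53 ± 0.34). None of the 3 passed without high 3 (adjusted p = 0.0684, 0.0548 and 0.0948, edgeR), and 0 of the 8 cohesin genes did when any library but high 1 was left out. In those fits 3 to 5 of the 8 had an unadjusted p under 0.05, beside 17.9% to 26.8% of all genes tested. Among 10 CDK inhibitors and brakes on mitotic entry 1 rose, PKMYT1, the kinase that inhibits CDK1, at 4.83, 18.2 and 15.5 CPM against 0.940, 0.901 and 0.948 CPM (3.77 ± 0.55, adjusted p = 0.0192, edgeR). CDKN1A, the p21 inhibitor, stood at 76.6, 68.6 and 66.3 CPM against 50.7, 45.9 and 44.6 CPM and CDKN1B, p27, at 3.35, 4.24 and 4.70 CPM against 9.49, 10.1 and 9.84 CPM. DESeq2 called 4 of the 10 higher and 1 lower. Neither CDKN1A nor CDKN1B passed with edgeR (adjusted p = 0.0977 and 0.0517, edgeR), although the groups of each did not overlap. Of all 13724 genes tested, 2558 had every high cuff pressure library above every control and 2560 had every one below.

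Markers of other cell types also differed between the libraries. The same shares of all genes, 29.3% at an unadjusted p under 0.05 and 19.2% by DESeq2 in either direction, apply to their counts. By edgeR 3.67% of all genes tested were higher and 1.62% lower. Basal cell markers, 0 of 6 called by edgeR, 2 at an unadjusted p under 0.05 and 1 called by DESeq2, summed to 515, 1069.9 and 2842 CPM against 464, 417 and 224 CPM, the same order in the high cuff pressure group as the mitosis genes. Most of this sum was KRT5, at 388, 945 and 2374 CPM against 327, 259 and 124 CPM (adjusted p = 0.0728, edgeR), while TP63, the basal cell transcription factor, stood at 32.7, 17.8 and 57.0 CPM against 28.7, 49.4 and 27.0 CPM and its groups overlapped. The same order within the group was seen for the sums of smooth muscle markers (0 of 5 called, 0 at an unadjusted p under 0.05 by edgeR, 0 higher and 0 lower by DESeq2), at 417, 3553 and 6246 CPM against 6038, 8015 and 4835 CPM. It was also seen for fibroblast markers (2 of 7 lower), at 267, 995 and 1478 CPM against 1162, 2067 and 1389.5 CPM, and for endothelial markers (1 of 7 higher), at 487, 993 and 1083 CPM against 591, 721 and 257 CPM. Neutrophil markers, 7 of 9 called higher, had the opposite order within the group, at 6848, 3634 and 1496 CPM against 81.4, 11.6 and 429.8 CPM. Without high 2 or any control, 0 to 2 of them were called by edgeR. In those fits 8 to 10 had an unadjusted p under 0.05, beside 17.9% to 25% of all genes tested. Multiciliated cell markers (0 of 8 called by edgeR, 2 at an unadjusted p under 0.05, 0 higher and 2 lower by DESeq2) were likewise lowest in high 3, at 2024, 1928 and 759 CPM against 2181, 3025 and 3006 CPM. Macrophage markers, 4 of 9 called higher, were nearly level within the group, at 205, 224 and 208 CPM against 128, 62.5 and 68.7 CPM. B and plasma cell markers, 2 of 5 called lower, had every high cuff pressure library below every control in all 5, an arrangement that 2560 of the 13724 genes tested had. They summed to 126, 108 and 222 CPM against 1076, 479 and 1212 CPM. Without high 2 or any control, edgeR called 0 of the macrophage, fibroblast, endothelial or B and plasma cell markers. In those fits 6 to 8 macrophage, 2 fibroblast, 1 to 2 endothelial and 4 B and plasma cell markers had an unadjusted p under 0.05. Secretory cell markers, 0 of 4 called by edgeR, 1 at an unadjusted p under 0.05 and 1 by DESeq2, summed to 5443, 6787 and 9512 CPM against 17531, 3828 and 5063 CPM. Markers of neutrophil precursors, which divide in bone marrow, had 5 genes with a row, of which 1, LTF, passed the filter. They summed to 18.0, 16.1 and 17.7 CPM against 106, 0.772 and 10.8 CPM, nearly all of it LTF, which secretory cells also express. The other 4 had few counts in high 1 to high 3 against control 1 to control 3: CEBPE had 9, 9 and 0 against 0, 0 and 0, CAMP 12, 4 and 9 against 2, 0 and 0, MPO 0, 0 and 0 against 0, 0 and 1, and CTSG 0 in all 6. With no filter, 4 of these 5 genes were tested, 0 passed and 2 had an unadjusted p under 0.05, with a median log2 fold change of 1.19. The part of cell composition in the level of the mitosis genes was not tested.

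**Figure D3:**
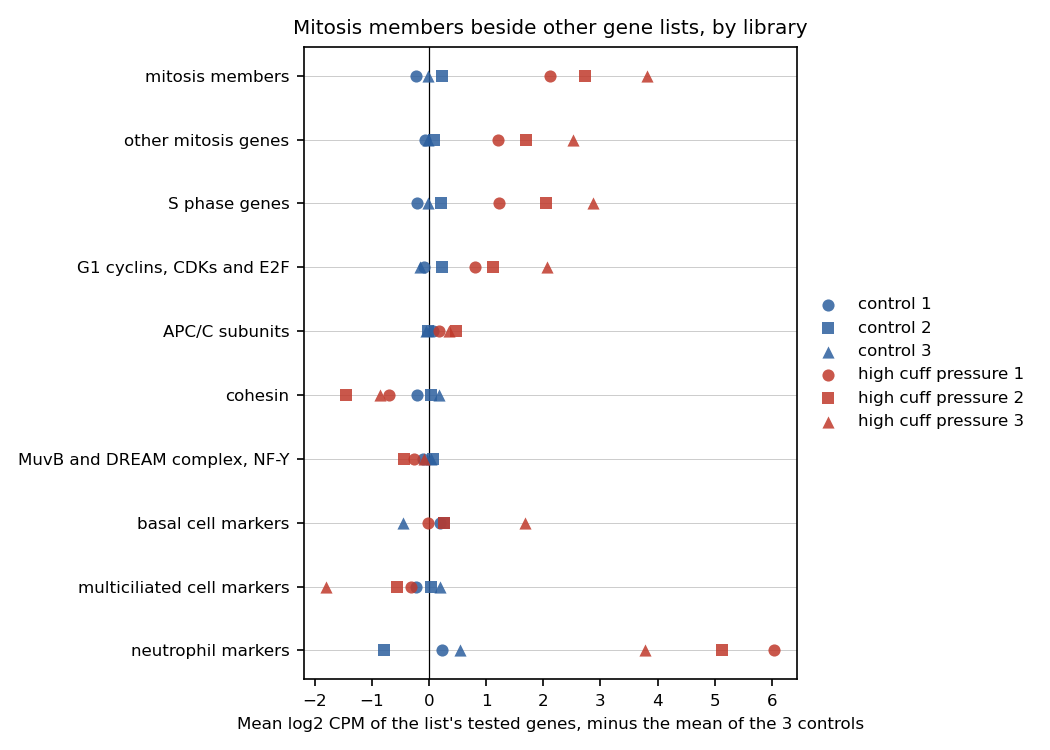
Mean log2 CPM of each gene list per library, as a difference from the mean of the controls, for the mitosis genes, 6 other cell cycle lists and 3 lists of cell type markers. The mitosis genes stand at 2.11, 2.73 and 3.82 in high 1, high 2 and high 3, and between -0.22 and 0.24 in the controls.

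In the authors' deposited table, 46 of the 51 genes were marked as up and 0 as down, beside 754 up (3.97%) and 697 down among 19001 genes. The 5 genes marked as neither in the authors' deposited table were TTK, CENPE, KIF18A, SMC2 and SMC4, and 42 genes were both marked up there and called higher here. In the authors' deposited Gene Ontology table, the mitotic cell cycle process had the smallest p of all terms (q = 1.32e-16), with 94 differential genes of 397 annotated, 66 of them up, of which 28 are among the 51. In the authors' deposited KEGG table, the cell cycle pathway had the smallest p (q = 6.01e-07), with 27 differential genes of 90, of which 7 are among the 51. These tables were made from the same libraries, so they are not a separate measurement.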

How the data were processed

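PolyA RNA of tracheal mucosa from 6 samples was sequenced on a DNBSEQ-T7 in 1 batch, per the labels. For each gene the deposited table gives raw counts for every library. It also gives the authors' FPKM (named so per the file headers), and the ratio of count to FPKM gave the model lengths. The authors' deposited tables also mark genes as up or down and give p-values and q-values and, for enriched terms, a rich factor, a ratio of shares. Their log2 fold change column holds cells damaged by a spreadsheet and was not used. HISAT2 2.0.4, StringTie 1.3.3b and edgeR appear in the submitters' processing notes. Strand setting, build, annotation and counting rule were not given in the sources used here.

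Tests were made with edgeR 4.0.16 (R 4.3.3): filterByExpr on the groups, TMM factors, glmQLFit with robust estimation, glmQLFTest and Benjamini-Hochberg adjustment over all 13724 genes tested. The SE was taken as the size of the fitted log2 change over the root of its F statistic, and log2 CPM have a prior count of 2. Other settings were RLE factors, DESeq2 1.42.0, total counts, 2 other filters, voom and log2(FPKM + pseudocount) fits with limma 3.58.1, a fit without robust estimation, a replicate block, and each library left out. After the data were seen, a fit with a trend over gene length removed (lowess span 0.5), the order of libraries under other scalings, the other lists without high 3 and DESeq2 without each library were added. The fits were tested on simulated data. The members and lists were chosen with earlier results of these data known. Named are all members with a row, and at most 3 genes with the smallest p in each other list plus CDKN1A, CCND1, E2F1, MCM2 and PCNA where measured; COX1, TP63 and the counts of CEBPE, CAMP, MPO and CTSG were added after their values were seen. No pair of libraries within a group agreed within sampling noise: the chi-square statistic over its degrees of freedom was at least 60.3. Promoter motifs, planned for a promoter table, were not analysed.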

Additional observations from a re-analysis of the deposited data

How the results depend on the processing

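With each library left out in turn, edgeR called 0 to 45 of the 51 mitosis genes higher, 0 to 1362 of all genes higher and 0 to 1261 lower, 0 to 36 of the other mitosis genes and 0 to 14 of the S phase genes. Fewer libraries remain in these fits; why the adjusted p-values depend on the controls and high 2 was not tested. With all libraries, 38 to 46 of the 51 genes were called by the other count fits without a block, and 35 by log2(FPKM + 1) or log2(FPKM + 0.1), for which 45 passed the filter of 1 FPKM in 3 libraries. Without a filter, log2(FPKM + 1) called 13 of the 51, 114 of all genes higher, 7 other mitosis genes and 2 S phase genes; the cause was not tested. DESeq2 called 1461 genes higher and 1170 lower. Genes lower numbered 1241 with total counts, 1745 with log2(FPKM + 1) and 1446 with log2(FPKM + 0.1), and genes higher 389, 447 and 413, against 503 higher and 222 lower with TMM.

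Same-numbered libraries of the groups did not deviate together (correlations -0.28, -0.20 and -0.23), and no library correlated best with its own number. With 3 libraries a group these values cannot tell whether libraries were paired, and the labels do not say. The labels' library names and titles number the controls differently, and the block uses the library names. With that number as a replicate block, 35 of the 51 genes, 198 of all genes and 13 other mitosis genes were higher and 46 of all genes lower; 0 of the 8 cohesin and 0 of the 11 G1 genes passed by edgeR, with 3 and 7 at an unadjusted p under 0.05. Of the 51 fold changes, 2 changed sign. TTK was at -0.15 with total counts, -0.0906 with log2(FPKM + 1) with or without the filter, -0.122 with log2(FPKM + 0.1) and -0.0819 to 0.576 with a library left out. SMC2 was at -0.0609 with log2(FPKM + 0.1) and -0.39 to 0.99 with a library left out. Low depth limits CENPA and NDC80 most, with 15 and 17 counts summed over the controls. The promoter alternatives were not run.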
